A study of Mus musculus with 7 samples.

Results

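The cells described here are the CD8 T cells that the depositors annotated as precursor-exhausted in CT-2A, a mouse glioma cell line grown in the brain. They were chosen by that annotation alone, and they numbered 5076 of 28644 cells (17.7%), 59.0% of the 8602 cells with a CD8 annotation and 37.1% of the 13692 T cells. The 7 mice gave unequal numbers: 144, 1091, 2040 and 1175 cells in KO1 to KO4, and 21, 159 and 446 cells in WT1 to WT3. They were set beside the naive or early activated (1502 cells) and the exhausted (1549 cells) CD8 annotations of the same table. The remaining CD8 annotation, proliferating, holds 475 cells.

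Tumour cells were injected into the brain, the tumour-bearing hemisphere was dissociated with enzyme at body temperature, and the cells were frozen, thawed, sorted as live CD45+ and/or CD11b+ cells and read by droplet 5′ single-cell RNA sequencing, with 1 library per mouse. The 4 KO mice carried floxed Siglece together with Sall1-CreERT2, a tamoxifen-inducible Cre driven by a gene that marks microglia among brain immune cells. The 3 WT mice carried floxed Siglece without Cre. All 7 mice received tamoxifen (2.5 mg, intraperitoneal, daily from day 7 to day 21 and every other day afterwards) and were 8 to 12 weeks old, on B6;129 or B6.129P2 backgrounds. Siglece encodes Siglec-E, an inhibitory sialic acid receptor of myeloid cells, so the T cells described here are not the cells in which the driver is known to act. In the annotated precursor-exhausted cells Siglece stood at 4.50, 8.13, 2.17 and 1.79 CPM in KO1 to KO4 and at 0, 3.30 and 2.86 CPM in WT1 to WT3, where CPM is a gene's unique molecular identifiers (UMIs) scaled to a fixed total for these cells in 1 mouse. The level in mo-DCs (monocyte-derived dendritic cells) was 81.7 ± 13.2 CPM (SD, n = 7).

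Exhausted CD8 T cells arise under lasting antigen exposure, as in tumours, and carry inhibitory receptors such as PD-1 (Pdcd1), LAG-3 (Lag3) and TIM-3 (Havcr2). A small precursor pool among them is known for the transcription factor TCF-1 (Tcf7), for SLAMF6 and for self-renewal, and it feeds the terminally exhausted cells, which lose TCF-1 and keep TOX. PD-1 blockade is known to act largely through that TCF-1-positive pool.

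WT1 stands apart by size: its 21 annotated precursor-exhausted cells held 189054 UMIs, beside 12429200 in KO3, and only 9 of its cells were annotated exhausted. The median per cell was 5568.5 UMIs in these cells, 3432 in naive and 4966 in exhausted cells. Of the cell barcodes, 460 occurred in 2 or more libraries, and 162 annotated precursor-exhausted cells carried one, 14 barcodes being shared between such cells.

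The annotation's name and its defining gene did not go together. Of the 4 markers set for these cells, Cd8a (the CD8 coreceptor) and Pdcd1 were high and Gzmk (granzyme K) was present, while Tcf7 was low. Tcf7 stood at 12.2, 4.96, 4.83 and 9.34 CPM in KO1 to KO4 and at 47.6, 17.6 and 2.86 CPM in WT1 to WT3. In naive cells of the same mice it stood at 166, 114, 120.1 and 154 CPM in KO and 164, 139.5 and 156 CPM in WT, so the ranges did not overlap. In exhausted cells it stood at 40.6, 11.1, 3.04 and 27.1 CPM in KO and 65.9, 40.3 and 3.08 CPM in WT, above the annotated precursor-exhausted cells in 6 of 7 mice. The mean difference in log2(CPM + 1) was -3.75 ± 1.15 (SD, n = 7 mice) against naive and -0.75 ± 0.79 against exhausted cells. Because the depositors named the cells from their expression, differences between annotations are descriptions here and carry no test. Among all 23 annotations the Tcf7 level ranked 12th in these cells (14.2 ± 15.6 CPM), and also without WT1 (8.63 ± 5.56 CPM, n = 6), with naive or early activated CD4 T cells first (229.8 ± 45.1 CPM) and naive CD8 cells next (145 ± 20.8 CPM). The cells are therefore called by the annotation here, and not by a TCF-1-positive state.

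Single cells, pooled over mice, gave the same order at equal depth. After every cell was thinned to 2000 UMIs, a depth that 5022 of the 5076 cells reached, a Tcf7 UMI was found in 55 of 5022 annotated precursor-exhausted cells (1.10%, exact 95% interval 0.826 to 1.42%). The share was 21.3% in naive and 2.94% in exhausted cells, and 0.528% in B cells, a cell type that should lack the gene. Before thinning the shares were 2.66, 31.0, 5.04 and 3.21%, with a median of 7302 UMIs in B cells. UMIs of both Tcf7 and Pdcd1 were found in 0.677% of thinned annotated precursor-exhausted cells, 3.37% of naive and 1.50% of exhausted cells. Over the whole series, 245 unthinned cells held UMIs of Cd8a, Tcf7 and Pdcd1 and none of Cd4. Of these, 82 (33.5%) carried the precursor-exhausted annotation, 1.62% of its cells, while 49 were naive (3.26% of naive cells) and 46 exhausted (2.97%). These intervals cover counting error only.

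**Figure D1:**
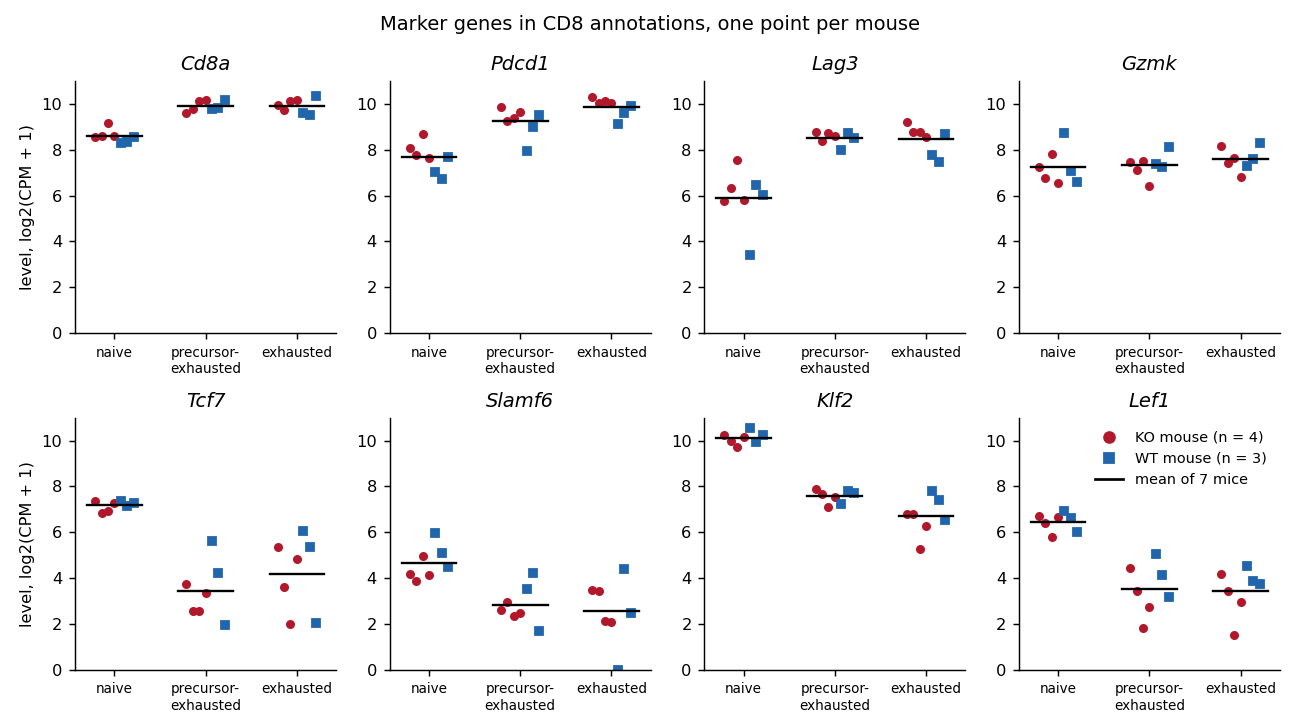
Levels of 8 marker genes as log2(CPM + 1), 1 point per mouse (circles KO, squares WT), in naive, annotated precursor-exhausted and exhausted CD8 T cells, with the mean of 7 mice as a line. Tcf7, Klf2 and Lef1 lie apart in naive cells, whose lowest Tcf7 level (114 CPM) is above the highest in the annotated precursor-exhausted cells (47.6 CPM), while Gzmk lies at like heights in all 3 annotations.

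The coreceptor and PD-1 separated these cells from naive cells. Cd8a stood at 775, 887, 1106 and 1141 CPM in KO and 878, 916 and 1168 CPM in WT, above every naive value (309 to 568 CPM), with a log2 difference of 1.34 ± 0.27 (n = 7). Exhausted cells had the same level on average (984 ± 217 CPM beside 982 ± 154). Pdcd1 stood at 939, 609, 672 and 808 CPM in KO and 243, 509 and 742 CPM in WT, the lowest value being that of WT1. Against naive cells it was higher in 7 of 7 mice (log2 1.57 ± 0.58), and against exhausted cells it was lower in 7 of 7 (-0.64 ± 0.28). Gzmk did not tell the annotations apart: it stood at 168 ± 58.7 CPM here, 175 ± 116 in naive and 205 ± 72.1 in exhausted cells. A thinned Cd8a UMI was found in 83.0% of annotated precursor-exhausted cells, 83.2% of exhausted, 39.6% of naive and 0.792% of B cells, so the naive annotation holds the fewest cells with a CD8 transcript among the 3.

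A gene was counted as higher or lower between annotations where the mean difference reached at least 1 in log2(CPM + 1), a fold of about 2, and pointed the same way in 7 of 7 mice, among genes with a mean of at least 10 CPM. Against naive cells 183 of 8093 genes were higher (2.26%) and 271 lower (3.35%). Without WT1, 166 were higher and 249 lower. The median difference over all genes was 0.04.

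Genes of naive and recirculating T cells were low. All 12 listed genes were lower than in naive cells, with a median difference of -2.68. Lef1, a partner of TCF-1, stood at 13.5 ± 10.2 against 89.4 ± 23.9 CPM. Klf2, a quiescence and egress factor, stood at 192 ± 37.4 against 1128 ± 212 CPM. The values of the annotations did not overlap for either gene.

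The list of genes known for precursor-exhausted cells largely followed the naive genes, with which it shares Tcf7, Lef1, Il7r and Ccr7. Of 18 listed genes 16 could be described, and 11 were lower than in naive cells: Tcf7, Slamf6, Id3, Il7r, Bach2, Eomes, Tnfsf8, Cxcr3, Ccr7, Lef1 and Emb (median -1.53). Slamf6, the surface marker of the precursor pool, stood at 5.14, 6.75, 4.02 and 4.53 CPM in KO and 10.6, 17.6 and 2.23 CPM in WT, beside 27.6 ± 16.5 CPM in naive and 7.32 ± 6.73 CPM in exhausted cells. Id3, an inhibitor of E proteins found in memory and precursor cells, stood at 18.3 ± 12.0 CPM beside 121 ± 28.0 and 16.6 ± 13.6 CPM. Cxcr5, the follicular homing receptor of the pool, was at 0 to 1.10 CPM. Cd200 alone was higher, at 38.4 ± 27.8 CPM beside 8.72 ± 9.03 in naive and 20.3 ± 15.5 CPM in exhausted cells. Against exhausted cells 14 of the 18 could be described, with 1 higher (Cd200) and 1 lower (Emb), and without WT1 neither was called (median of the list -0.14).

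Some inhibitory receptors and genes of terminal exhaustion were above the naive level. Of 11 inhibitory receptors 5 were higher (Pdcd1, Havcr2, Lag3, Ctla4 and Entpd1) and none was lower, with a median of 0.87. Of 19 described genes of terminal exhaustion 5 were higher (Tox, Havcr2, Entpd1, Rgs16 and Lag3) and none was lower, with a median of 0.68. Lag3 stood at 431, 338, 424 and 387 CPM in KO and 254, 418 and 366 CPM in WT, against 9.65 to 187 CPM in naive cells, without overlap. Havcr2 stood at 179, 130.3, 106 and 74.6 CPM in KO and 84.6, 84.6 and 191 CPM in WT, again above every naive value (6.38 to 58.1 CPM). Tox, the transcription factor of exhaustion, stood at 146, 68.8, 337 and 233 CPM in KO and 138, 169 and 80.8 CPM in WT. Its mean was the highest of the 23 annotations. It was higher than in naive cells of the same mouse in 7 of 7 mice (log2 1.68 ± 0.93), and Rgs16, a regulator of G protein signalling, likewise (2.27 ± 0.98). Against exhausted cells none of the 11 receptors was called in either direction (median 0.06). Levels beside exhausted cells were 374 ± 62.7 and 380.0 ± 144 CPM for Lag3, 121 ± 47.2 and 112 ± 69.3 CPM for Havcr2, and 167 ± 92.6 and 144 ± 93.4 CPM for Tox.

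**Figure D2:**
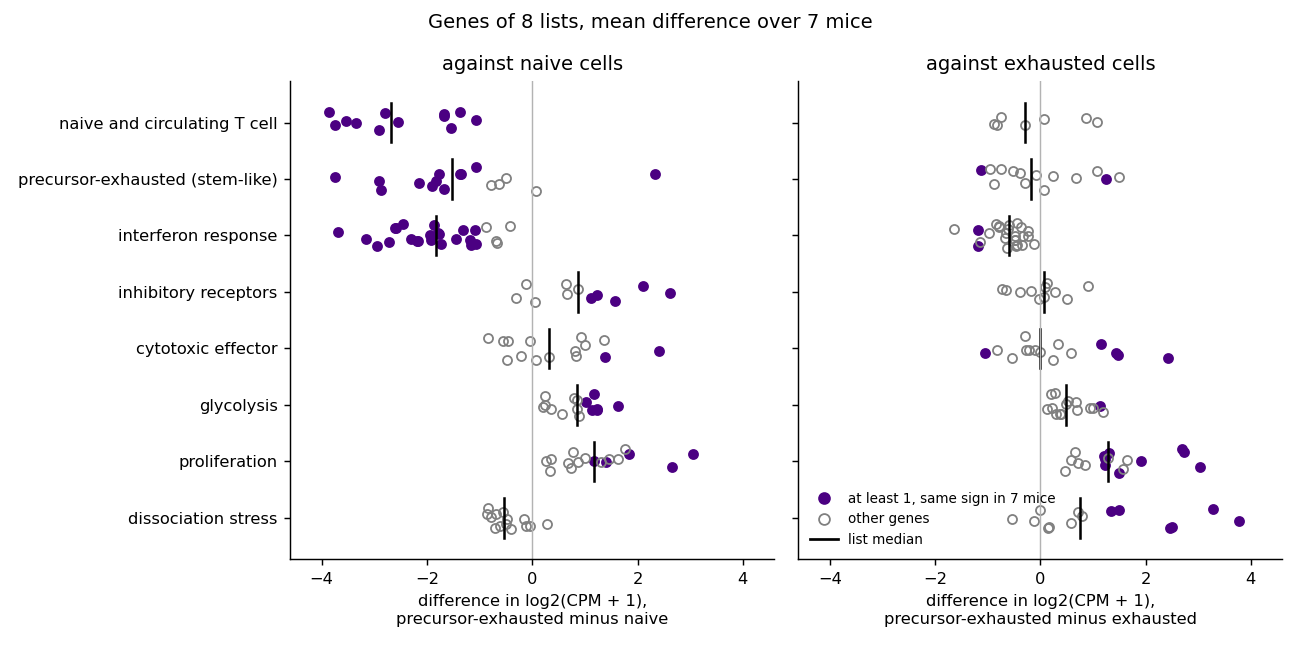
Genes of 8 lists, 1 point per gene, placed by the mean difference in log2(CPM + 1) over 7 mice, annotated precursor-exhausted minus naive (left) and minus exhausted cells (right). Filled points differ by at least 1 with 1 sign in 7 mice, and black lines are list medians, the naive list lying at -2.68 on the left and the proliferation list at 1.29 on the right.

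Among the 10 genes most above naive cells, chosen by size of the difference, were effector and receptor genes. Gzmf, one of the granzymes clustered with Gzmb, stood at 826, 394, 98.4 and 33.9 CPM in KO and 153, 58.3 and 2519 CPM in WT, against 0 to 113 CPM in naive cells (log2 4.35 ± 2.46). The values overlap, and those of the annotated precursor-exhausted cells differ widely between mice of 1 genotype. Klrh1, a killer cell lectin-like receptor, stood at 250.5, 90.1, 131 and 236 CPM in KO and 106, 132 and 95.1 CPM in WT, against 0 to 27.3 CPM (4.19 ± 1.71). Prf1 (perforin) stood at 319, 140.3, 141 and 199 CPM in KO and 359.7, 204 and 268 CPM in WT, against 26.0 to 67.4 CPM (2.40 ± 0.82). These ranges did not overlap for Klrh1 and Prf1. Tnfrsf9 (4-1BB, an activation-induced costimulatory receptor) stood at 692, 282, 281 and 589.8 CPM in KO and 471, 465 and 544 CPM in WT, higher by 2.38 ± 0.54, and Lag3 by 2.62 ± 1.04. The others were Adgrg1 (3.45), Nrgn (2.74, or 1.97 without WT1), Ifitm1 (2.62), Matk (2.27) and Rgs16 (2.27).

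Interferon-stimulated genes were low beside naive cells. Of 26 described genes 22 were lower and none higher, with a median of -1.83, and 20 were lower without WT1. Isg15, a ubiquitin-like interferon-induced protein, stood at 45.0, 46.8, 48.3 and 80.1 CPM in KO and 84.6, 124 and 91.3 CPM in WT, against 223 to 643 CPM in naive cells. The naive values lay above all of them. Ifit1, which binds viral RNA, stood at 12.5 ± 7.98 against 143 ± 77.3 CPM. Ifit1 (-3.70, or -2.96 without WT1), Ifit3 (-3.17) and Ifit3b (-2.96) were among the 10 genes most below naive cells, beside Klra7 (-3.99), Tcf7 (-3.75), Klf3 (-3.69), Slfn5 (-3.00), Lef1 (-2.92) and Gm2682 (-2.89). Against exhausted cells Isg15 and Ifit3 were lower among 25 genes, and neither was called without WT1.

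Migration genes split. Cxcr6, a chemokine receptor of tissue T cells, was higher than in naive cells (415 ± 79.0 against 184 ± 69.2 CPM), as was Zfp683 (Hobit, a residency factor; log2 1.29 ± 0.45). They were the 2 called higher of 10 tissue residency genes, while Ahr was lower. Of that list 6 genes lay above 0, with a median of 0.16 (0.08 without WT1). Of the 8 chemokine and egress receptors described, Cxcr6 was the 1 higher and Cxcr3, Cxcr4, Ccr2, Ccr7 and S1pr1 were lower. Il2ra, the alpha chain of the interleukin 2 receptor, was higher (85.8 ± 35.2 against 29.7 ± 12.8 CPM) and Il7r, the interleukin 7 receptor of resting T cells, lower (117 ± 44.5 against 294 ± 75.6 CPM). Of the 8 killer lectin-like receptors described from the list, which does not hold Klrh1, Klre1 was the 1 higher, at 125, 144, 168 and 226 CPM in KO and 111, 223 and 149 CPM in WT, above every naive value (52.8 to 85.3 CPM), while Klrb1c, Klra7 and Klra9 were lower. None of 10 MHC class I genes was called in either direction.

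Against exhausted cells 167 of 8010 genes were higher (2.08%) and 66 lower (0.824%), or 100 and 58 without WT1. Transcripts of some effector genes were part of the difference. Ifng (interferon gamma) stood at 538, 597, 814 and 474 CPM in KO and 582, 598 and 528 CPM in WT, against 134 to 286 CPM in exhausted cells, without overlap (log2 1.48 ± 0.38). Ccl3, a chemokine of activated T cells, stood at 320.5, 202, 254 and 153 CPM in KO and 21.2, 137 and 119 CPM in WT, against 0 to 109.5 CPM, and WT1 was the lowest of the annotated precursor-exhausted group. Ccl4, a related chemokine, was higher than in exhausted cells of the same mouse in 7 of 7 mice (947 ± 395 beside 375 ± 220.1 CPM). Of 15 cytotoxic effector genes Prf1, Ifng, Ccl3 and Ccl4 were higher and Serpinb9, an inhibitor of granzyme B, was lower. The list as a whole was level, with 7 of 15 above 0 and a median of -0.01. Gzmb (granzyme B) was level, at 1151 ± 674 beside 1289 ± 802 CPM. After thinning, an Ifng UMI was found in 47.0% of annotated precursor-exhausted, 28.0% of naive and 27.2% of exhausted cells, beside 1.06% of B cells.

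Part of the cell cycle list was above the comparison annotations, while proliferating CD8 cells have an annotation of their own. Of 17 described genes 9 were higher than in exhausted cells (Mki67, Stmn1, Mcm2, Mcm3, Tyms, Rrm2, Cdk1, Ccnb2 and Birc5) and none lower, with a median of 1.29, and 5 were higher than in naive cells (median 1.18). Mki67, the Ki-67 antigen of cycling cells, stood at 111, 68.5, 56.6 and 72.0 CPM in KO and 100.5, 81.3 and 93.8 CPM in WT, against 13.4 to 61.0 CPM in exhausted cells. KO3, at 56.6 CPM, was the 1 mouse within the exhausted range. Glycolysis genes showed 6 of 15 higher than in naive cells and 1 (Tpi1) higher than in exhausted cells, or 4 and 0 without WT1.

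The genes most below exhausted cells were Nr4a3 (-2.05), Fosl2 (-1.84), Gramd3 (-1.83), P2ry10 (-1.81), Lin54 (-1.78), Vps37b (-1.67), Mxd1 (-1.59), Ern1 (-1.50), Sik1 (-1.50) and Jmy (-1.47). Nr4a3 is an orphan nuclear receptor induced by T cell receptor signals. It stood at 84.1, 47.4, 62.2 and 100.4 CPM in KO and 100.5, 51.7 and 86.5 CPM in WT, against 215 to 506 CPM in exhausted cells. Icos, a costimulatory receptor, stood at 193 ± 48.4 against 492 ± 99.1 CPM, also without overlap (161 to 299 and 326 to 642 CPM).

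Heat shock genes were 5 of the 10 genes most above exhausted cells. Hspa1b and Hspa1a encode near-identical inducible HSP70 chaperones, Dnajb1 an HSP40 co-chaperone, Hsph1 an HSP110 chaperone and Bag3 an HSP70 co-chaperone. Their promoters are known to carry heat shock elements, bound by HSF1. The sequence before the start is shown for the genes whose window held the motif searched, and not for Dnajb1 and Bag3. The motif searched was GAANNTTC or TTCNNGAA on both strands, and each form is its own reverse complement; 4218 of 32851 promoter windows of 250 bases held it (12.8%). The 250 bases before the start are from RefSeq (GRCm38.p6), at chr17:34972157-34972406 for Hspa1a, chr17:34959239-34959488 for Hspa1b and chr5:149636337-149636586 for Hsph1, all on the minus strand, with the match in capitals.
Hspa1a: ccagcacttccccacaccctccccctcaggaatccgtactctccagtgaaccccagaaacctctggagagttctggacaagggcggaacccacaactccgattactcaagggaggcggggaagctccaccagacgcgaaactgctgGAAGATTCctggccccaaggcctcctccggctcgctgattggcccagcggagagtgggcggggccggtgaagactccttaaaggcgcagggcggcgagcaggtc
Hspa1b: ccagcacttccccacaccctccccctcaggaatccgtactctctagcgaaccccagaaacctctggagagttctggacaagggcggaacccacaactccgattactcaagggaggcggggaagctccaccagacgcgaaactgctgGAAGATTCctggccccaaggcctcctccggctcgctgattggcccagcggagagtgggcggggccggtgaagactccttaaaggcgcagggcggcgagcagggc
Hsph1: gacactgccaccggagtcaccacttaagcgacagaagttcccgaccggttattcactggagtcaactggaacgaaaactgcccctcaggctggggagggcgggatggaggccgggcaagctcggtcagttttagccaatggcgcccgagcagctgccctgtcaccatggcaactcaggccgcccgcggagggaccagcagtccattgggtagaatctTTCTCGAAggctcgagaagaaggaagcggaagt
The Hspa1a and Hspa1b windows differ at 3 bases (98.8% identical) and both hold the match from position -104, counted back from the start. Hsph1 holds one from -33. The windows of Dnajb1 and Bag3 hold none. A match describes letters and not a bound site.

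Hspa1b stood at 2096, 2642, 4559.6 and 2366 CPM in KO and 1269, 3152 and 1813 CPM in WT, against 65.9 to 331 CPM in exhausted cells (log2 3.77 ± 0.60). Dnajb1 stood at 2143, 3056, 4782 and 2771 CPM in KO and 1322, 2999 and 2006 CPM in WT, against 308 to 717 CPM (2.46 ± 0.51). Hsph1 stood at 1100.3 ± 419 against 159.8 ± 66.9 CPM (2.82 ± 0.71). For all these genes every mouse was above every exhausted value. Naive cells were higher still on average, at 3739 ± 793 CPM for Hspa1b and 3694 ± 879 CPM for Dnajb1. KO3 was the exception for Hspa1b, with 4375 CPM in its naive cells beside 4559.6 CPM. The reads of Hspa1a and Hspa1b cannot be told apart with certainty: 87.6 and 85.8% of their UMIs in these cells were in values that were not whole numbers. Summed, they stood at 6160 ± 2333 CPM, rank 6 of 23 annotations, while the exhausted annotation stood at 666 ± 278 CPM in 6 mice, rank 22, above tumour or stromal cells only.

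The other genes of the 10 most above exhausted cells were Hspa1a (3.29), Bag3 (3.10), Gm10501 (3.09), Stmn1 (2.73), Atf3 (2.49), Ccl3 (2.42) and Rhob (2.13). Without WT1, where exhausted cells held no UMI of Atf3 or Bag3, Atf3 was at 1.58, Bag3 at 2.38 and Rhob at 1.41. Of 14 dissociation stress genes 6 were higher than in exhausted cells (Jun, Atf3, Hspa1a, Hspa1b, Dnajb1 and Hsp90aa1; median 0.76) and none was called against naive cells (median -0.53). A thinned UMI of Hspa1a or Hspa1b was found in 86.1% of annotated precursor-exhausted, 77.6% of naive, 26.3% of exhausted and 62.0% of B cells. The part of tissue handling in this difference was not tested.

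**Figure D3:**
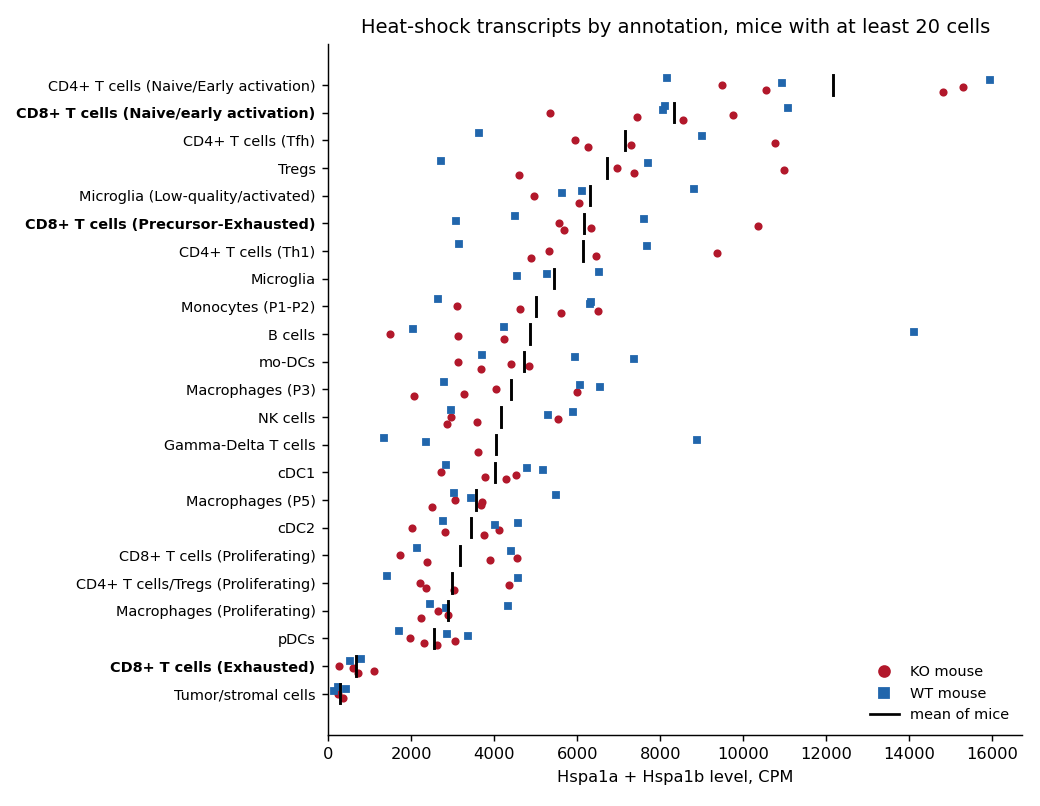
Summed level of Hspa1a and Hspa1b in CPM (linear axis) in all 23 annotations ordered by their mean (black line), 1 point per mouse with at least 20 cells, circles KO and squares WT. The exhausted annotation (mean 666 CPM) lies above tumour or stromal cells only, and the annotated precursor-exhausted cells (6160 CPM) rank 6 of 23.

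T cell receptor genes were compared within and between mice. A T cell rearranges a Trbv segment into its receptor beta chain and passes it on when it divides, so the cells of a clone share a Trbv gene, although cells that share one need not be a clone. Usage was taken as the share of Trbv UMIs. The leading segment differed between mice, and the ends of the segments are shown because that is where a clone's receptor begins to differ; capitals run from the codon of the conserved cysteine to the end of the segment. All are the last 60 bases on the plus strand of chromosome 6 in GRCm38 (GENCODE vM21), at chr6:41152171-41152230 for Trbv16, chr6:41121773-41121832 for Trbv13-2, chr6:41227934-41227993 for Trbv26, chr6:41116409-41116468 for Trbv13-1, chr6:41141599-41141658 for Trbv15 and chr6:41062744-41062803 for Trbv5.
Trbv16: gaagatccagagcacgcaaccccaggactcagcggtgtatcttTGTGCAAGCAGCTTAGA
Trbv13-2: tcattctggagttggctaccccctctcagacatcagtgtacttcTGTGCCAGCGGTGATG
Trbv26: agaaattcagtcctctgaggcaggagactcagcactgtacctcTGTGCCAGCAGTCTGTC
Trbv13-1: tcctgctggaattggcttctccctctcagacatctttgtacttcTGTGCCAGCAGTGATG
Trbv15: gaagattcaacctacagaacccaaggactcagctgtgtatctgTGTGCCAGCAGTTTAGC
Trbv5: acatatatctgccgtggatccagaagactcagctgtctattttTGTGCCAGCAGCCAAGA
Trbv13-1 and Trbv13-2 hold the same base at 88.2% of their last 280 positions, compared without gaps from the 3′ end.

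Usage was uneven within mice, and the leading gene differed between most of them. The leading gene was Trbv16 in KO1 (35.8%, exact 95% interval 33.5 to 38.2%), Trbv13-2 in KO2 (32.9%), Trbv16 in KO3 (23.0%) and Trbv26 in KO4 (57.3%, 56.0 to 58.6%). In WT it was Trbv13-1 in WT1 (38.5%, from 224 UMIs), Trbv13-2 in WT2 (16.7%) and Trbv15 in WT3 (57.0%, 55.5 to 58.4%). The lead in WT2 was close to a tie, with Trbv5 also at 16.7%, and in KO3 Trbv13-1 followed at 21.2%. The intervals treat each UMI as independent, but UMIs of 1 cell are not, so they are too narrow. Counted by cells, the share lay outside its UMI interval in every mouse but WT2, as in KO2 (47.3%). In naive cells of the same mice the leading genes took 6.61, 13.3, 18.1 and 4.33% in KO1 to KO4 and 3.36, 11.6 and 18.0% in WT1 to WT3. These are lower, but each gene was chosen for its high share in the annotated precursor-exhausted cells, which favours that direction. In KO2, KO3, WT2 and WT3 the same gene also had the highest share in naive cells. In exhausted cells the genes leading in the annotated precursor-exhausted cells took 38.2, 31.5, 22.4 and 58.4% in KO and 27.6, 6.62 and 62.4% in WT. The 2 annotations lay close in 5 mice and apart in WT1 and WT2. The exhausted values of WT1 and WT2 rest on 58 and 136 Trbv UMIs from 8 and 33 cells. With so few cells a gap there cannot be told from the sampling of cells. The overlap of usage between annotated precursor-exhausted and exhausted cells ran from 51.3 to 93.2%, and that with naive cells from 39.3 to 71.6%. Overlap with annotated precursor-exhausted cells of another mouse ran from 18.2 to 69.9%. In WT1 and WT2 the overlap with their own exhausted cells, 51.3 and 56.0%, was below the highest with another mouse. The effective number of Trbv genes was 2.65 to 10.5, beside 7.49 to 14.0 in naive cells. The exhausted overlap exceeded the naive overlap in 6 of 7 mice, WT2 being the exception at 56.0 and 61.7%.

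**Figure D4:**
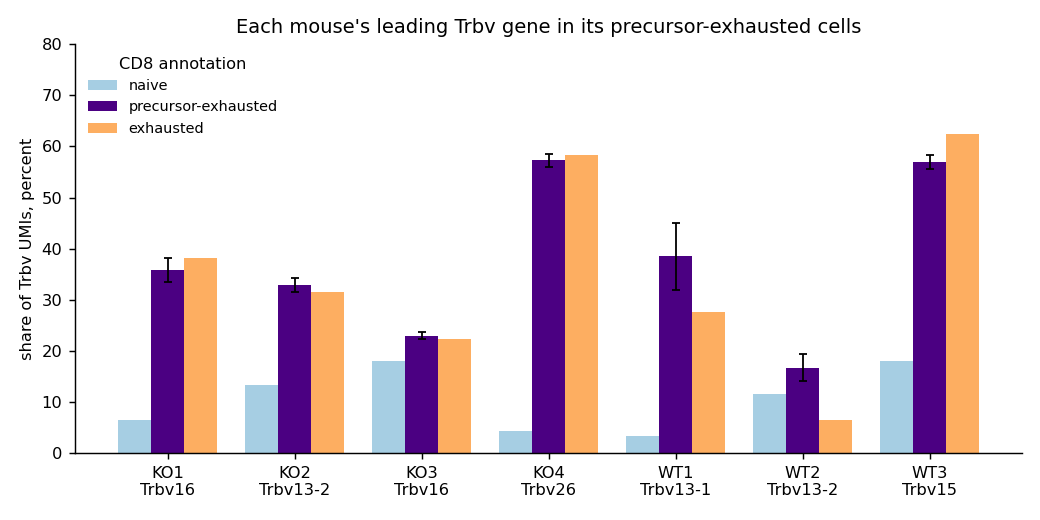
Bars give the share of Trbv UMIs (percent) taken by the leading Trbv gene of the annotated precursor-exhausted cells of each mouse, in its naive, annotated precursor-exhausted and exhausted cells, with exact 95% binomial intervals on the middle bars. KO4 (57.3%) and WT3 (57.0%) have the highest shares, beside 58.4 and 62.4% in their exhausted cells.

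Counts of cells added the partner chains. In KO4, 558 of 1070 cells with a Trbv UMI were led by Trbv26 (52.1%), and their most used alpha segments were Trav12-2 (42.7%) and Trav12-3 (32.8%). In WT3, 208 of 429 cells were led by Trbv15, with Trav9-2 at 75.0% of their alpha UMIs. Of those 208 cells 200 (96.2%) also held Trbv5, and when cells rather than UMIs were counted Trbv5 came first in KO3, WT2 and WT3. In these cells 32.6% of Trbv5 UMIs were in values that were not whole, against 0% for the other segments shown, so the Trbv5 values are uncertain.

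Expression in the cells led by a mouse's leading Trbv gene was set beside that in its other cells. The log2 differences in KO1 to KO4 were -2.07, 0.08, -0.59 and -0.62 for Gzmf, 1.55, -0.53, -0.18 and 0.25 for Klrh1, and 0.32, -0.27, -0.11 and 0.15 for Gzmk. Those in WT1 to WT3 were 8.75, 0.62 and 1.63 for Gzmf, 2.04, 0.35 and -2.59 for Klrh1, and -1.51, 0.01 and 1.67 for Gzmk. The WT1 values rest on 5 and 12 cells, and KO2, KO3 and KO4, with the most cells, stayed under 1 for these 3 genes. In WT3 the 208 Trbv15-led cells held Gzmf at 3922 CPM and Gzmk at 436 CPM, beside 1266 and 137 CPM in the other 221 cells. Klrh1 went the other way there, at 25.4 beside 158 CPM, and Pdcd1 was level at 734 and 735 CPM. In KO1 the 44 Trbv16-led cells held Klrh1 at 471 CPM and Gzmf at 257 CPM, beside 160.0 and 1080.1 CPM in 97 others, and 350 of the 1286 Gzmf UMIs of that mouse lay in 1 cell. Tcf7 was lower in the led cells in 7 of 7 mice (mean log2 -2.35 ± 2.41), but the led cells of WT1, WT2 and WT3 (5, 19 and 208 cells) held none, so the size depends on the pseudocount. Gzmf was higher in 4 of 7. Cells of 1 mouse are no replicates, and no test was made within a mouse.

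The genotype comparison asks whether loss of Siglece in cells with Sall1-driven Cre moved gene expression in these T cells, and since genotype did not enter the annotation it can be tested. On UMIs summed per mouse, edgeR's quasi-likelihood test called 0 of 10825 genes at an adjusted p under 0.05 (0% higher and 0% lower), with 414 genes at an unadjusted p under 0.05. DESeq2 also called 0, with 246 at an unadjusted p under 0.05. KO and WT values did not overlap for 428 genes higher in KO (3.95%) and 308 lower (2.85%). The genes named next are those of smallest p among them, and none passed: each has an adjusted p of 1.00 in edgeR. Zfp36l2, an RNA-binding protein that shortens messages, stood at 545, 880.1, 955 and 624 CPM in KO and 434, 468 and 467 CPM in WT (log2 0.74 ± 0.20, SE). Ifi30, a lysosomal thiol reductase, stood at 37.2, 54.8, 39.2 and 35.7 CPM in KO and 84.7, 73.7 and 69.6 CPM in WT (-0.80 ± 0.18). Ifi30 is mainly a gene of antigen-presenting cells, and the 12 myeloid markers summed to 805 to 2822 CPM in KO and 1439 to 2003 CPM in WT, 10 of them at 10 CPM or more and none at 0. The part of myeloid RNA in its difference was not tested. The others were Asrgl1 (0.91), Zfp580 (1.50), Klra3 (3.35) and Dclk2 (1.08) above 0, and Emilin2 (-1.96), Erc1 (-1.68), Xcr1 (-1.98) and Inf2 (-1.69) below 0. WT1 held 0 to 2 UMIs of each of these others, and Klra3 had 0, 1 and 4 UMIs in WT1 to WT3.

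No member of a gene list was called between genotypes in these cells. Interferon genes lay below 0 in 23 of 26 (median -0.21, with 0.03 over all genes), or in 25 of 27 without WT1 (-0.32). Isg15 was the one of smallest p: its KO values, 45.0 to 80.1 CPM, all lay below its WT values, 84.6 to 124 CPM (log2 -0.86 ± 0.23, unadjusted p = 0.00294, adjusted 1.00 in edgeR). In naive cells 2 of 8312 genes were called lower in KO (0.0241%), and values did not overlap for 3.46% of genes higher and 3.3% lower. Both called genes are interferon genes, Iigp1 (-1.77, adjusted p = 0.00591) and Ifit1 (-1.25, adjusted p = 0.0346, edgeR). Neither was called with equal cells per mouse, without cells holding a Cd4 UMI or without WT2, and Ifit1 was also not called without KO2, without WT1, in G1 cells or with the replicate block (adjusted p = 0.0852). In the annotated precursor-exhausted cells those values were 0.08 (-0.02 without WT1) and -0.58. Of the interferon list, 28 of 28 genes lay below 0 in naive cells (median -0.60) and 17 of 22 in exhausted cells (-0.19). The difference of the genotype effect between annotated precursor-exhausted and naive cells was called for 0 of 9783 genes (0%).

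Genes of terminal exhaustion lay above 0 in 16 of 20 (median 0.20, or 0.06 with 12 of them above 0 without WT1), and stem-like genes below 0 in 14 of 17 (-0.50, or -0.33 without WT1). Ccl3 (1.17, unadjusted p = 0.0395), Ccl4 (0.89, or 0.49 without WT1) and Cd101 (0.85) had values that did not overlap, and none passed. Glycolysis genes lay below 0 in 15 of 16 (-0.33, or -0.20 without WT1) and proliferation genes in 18 of 20 (-0.25, or -0.22 without WT1). Dissociation stress genes lay above 0 in 14 of 14 (0.32, or 0.20 without WT1). In naive and exhausted cells the medians were -0.33 and -0.42 for stem-like genes and -0.12 and -0.18 for glycolysis genes. The medians of these 2 lists were thus below 0 in all 3 CD8 annotations. Stem-like genes were nearly evenly split in exhausted cells, with 7 of 13 below 0. In naive cells 13 of 16 were below 0, or 11 of 17 without WT1 (median -0.19). Glycolysis genes were below 0 in 11 of 15 in naive and 12 of 15 in exhausted cells. The medians in naive and exhausted cells were 0.07 and 0.15 for terminal exhaustion, -0.04 and 0.19 for proliferation, and -0.01 and 0.17 for dissociation stress genes. Of the marker genes in the annotated precursor-exhausted cells, Cd8a was at 0.01, Pdcd1 at 0.58, Gzmk at -0.48 and Tcf7 at -0.82. Without WT1 they were at -0.11, 0.26, -0.61 and -0.18. The median of all genes was 0.03 here and 0.02 with RLE size factors on the same genes.

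Against exhausted cells, where WT1 was left out for its 9 cells, the genotype effect differed for 1 gene upward and 1 downward of 10976 (0.00911% each, edgeR). Igkv6-17, an immunoglobulin light chain segment of B lineage cells, had a difference of 4.19 (adjusted p = 9.72e-08), and in KO4 3692 of its 3923 UMIs lay in 1 cell. Without that cell its KO4 level falls from 538.7 to 31.9 CPM, beside 121 CPM in WT2 and at most 0.08 CPM in the other mice. Igkc UMIs were found in 55.9% of KO4 and 60.4% of WT2 annotated precursor-exhausted cells, beside 2.47 to 9.61% in the other mice, and the 7 B cell markers summed to 1211 CPM in KO1, 436 in KO4 and 228 in WT2, beside 20.7 to 63.5 CPM in the rest. Trbv29 had a difference of -10.08 (adjusted p = 0.00859) from 0 to 88 UMIs per mouse here, with the exhausted cells of WT2 and WT3 at 0, so its size depends on the prior count. Neither was called by DESeq2, or without KO4 or WT2, and Trbv29 was also not called without KO3 or WT3. In the exhausted cells themselves 1 of 7403 genes was called, Gm6969, lower in KO (0.0135%; -2.94, adjusted p = 0.00134, edgeR). It was not called without WT3 (adjusted p = 0.366) or with equal cells per mouse (adjusted p = 0.111), and the fit holds 2 WT mice. Values did not overlap for 10.8% of genes higher and 6.51% lower. In the annotated precursor-exhausted cells it stood at 1.28 to 17.5 CPM in KO and 5.29, 108 and 92.2 CPM in WT (-2.95, adjusted p = 1.00, edgeR).

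The abundance of the annotation was compared over mice. It took 45.0, 65.0, 68.7 and 52.0% of CD8 cells in KO1 to KO4 and 16.7, 31.7 and 59.8% in WT1 to WT3. The groups overlap, since WT3 lies above KO1 and KO4, and the means of 57.7 ± 11.1% and 36.0 ± 21.9% gave an exact permutation p of 0.143 (two-sided, 0.229 after adjustment over 4 annotations, smallest possible 0.0286). Without WT1 the WT mean was 45.7% and the difference fell from 21.6 to 11.9 points (exact permutation p = 0.4). Without the proliferating annotation in the denominator p was 0.114, as a share of T cells (37.8 and 17.6%) it was 0.171, and as a share of all cells (23.5 and 5.20%) it was 0.0857, all by exact permutation. Cells called S or G2M in the deposited table made up 36.9 ± 9.80% in KO (n = 4, lowest 26.7%) and 43.2 ± 12.4% in WT (n = 3, lowest 33.3%, exact permutation p = 0.457). That difference, -6.26 points, turned to 0.727 points without WT1. Thinned cells with both Tcf7 and Pdcd1 UMIs made up 0.555 ± 0.455% in KO and 2.09 ± 2.38% in WT (exact permutation p = 0.229, or 0.343 after adjustment over the 6 shares tested), the highest being WT1 with 1 of 21 cells. Without WT1 the WT mean was 0.747% and the difference went from -1.53 to -0.192 points. A p above the threshold here does not show that the shares are equal.

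**Figure D5:**
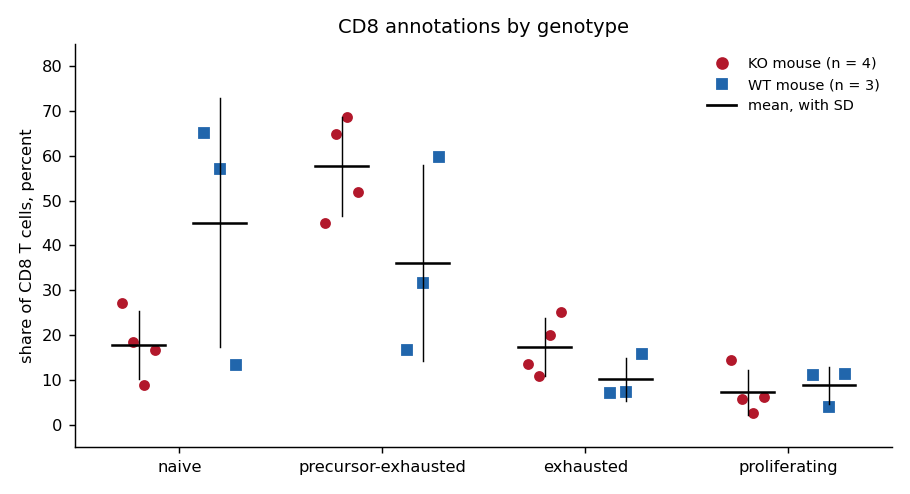
Share of CD8 T cells (percent) in each of 4 CD8 annotations, 1 point per mouse, circles KO (n = 4) and squares WT (n = 3), with mean and SD as lines. The annotated precursor-exhausted share spans 45.0 to 68.7% in KO and 16.7 to 59.8% in WT.

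Markers of other cell types were read in the same cells. The 6 markers listed for CD4 and regulatory T cells summed to 809 CPM in KO1 and 312 to 532 CPM in the other mice, mostly Ctla4 (290.1 ± 121 CPM) and Il2ra (85.8 ± 35.2 CPM), which CD8 T cells also express. Foxp3, which defines regulatory T cells, stood at 3.27 ± 3.35 CPM. Cd4 itself stood at 124, 29.0, 14.3 and 13.9 CPM in KO and 37.0, 107 and 27.7 CPM in WT. At 2000 UMIs 2.71% of the cells held a Cd4 UMI and 0.697% held both Cd8a and Cd4. The latter share was 0.694, 0.656, 0.691 and 0.943% in KO and 0, 0 and 0.457% in WT, without overlap, from 1, 7, 14 and 11 cells in KO and 0, 0 and 2 cells in WT. The exact permutation p was 0.0286, the smallest possible, or 0.171 after Benjamini-Hochberg adjustment over the 6 shares tested, and 0.2 unadjusted at 3000 UMIs. Of the 8 NK cell markers the sum was 160 to 386 CPM, below the naive cells' 421 to 1040 CPM. Their part in the values above was not tested.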

How the data were processed

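The 7 libraries were aligned with STARsolo (STAR 2.7.10a, FastQC 0.11.5, mm10), per the submitters' processing notes. The authors deposited 1 matrix that holds the cells of all 7 mice, and a cell table with annotation, phase and mitochondrial percent. The percent values and t-SNE scores are the authors' own, and the scores were not used. The number of detected genes per cell is a count the authors deposited. The values the authors deposited are estimated counts of UMIs: 7.51% of non-zero values, holding 8.71% of UMIs, are not whole (tolerance 1e-06), for a reason not given in the sources used here. Values were summed per mouse and annotation, which is the replicate, and rounded for fits. Levels are CPM of these sums, and differences between annotations are paired within mice as log2(CPM + 1). Annotations with at least 20 cells per mouse entered the fits. Genotype was fitted with edgeR 4.0.16 (TMM, filterByExpr, quasi-likelihood, Benjamini-Hochberg adjustment over all genes tested), with DESeq2 1.42.0 as an alternative, in R 4.3.3. The fits were tested on simulated data with 1 dispersion for all genes, the changed genes being taken from those not low in counts. For the annotated precursor-exhausted cells, 35.7% of genes changed by 1 on the log2 scale were called, and 95.7% of those changed by 2. A count of 0 called genes therefore does not show that changes of about 2-fold are absent. Nor does it show this for larger changes in genes that vary more between mice, since the simulation held 1 dispersion. Shares were compared by exact permutation over 35 divisions of mice, two-sided. Intervals are exact binomial (95%) and cover counting error only. Those of Trbv shares treat UMIs of 1 cell as independent and are too narrow. For shares of cells with a UMI, cells were thinned to 2000 UMIs. Doublets were not removed beyond the deposited filter, which is not given in the sources used here. The labels give replicates by mouse. The cells, gene lists and comparisons were chosen with earlier results of these data known. Genes named are the set markers, list members, the 10 largest differences in each direction with at least 50 CPM in 1 annotation and 1 sign in every mouse, the 5 genes of smallest p in each direction without overlap, and each mouse's leading Trbv gene (1 gene that the rule names is not reported here); Icos, Igkc and Gzmb were added as list members or as genes that bear on a result. Promoters are from RefSeq (GRCm38.p6) and Trbv segments from GENCODE vM21.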

Additional observations from a re-analysis of the deposited data

Results flagged for a closer look

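For 70 values over 4 to 7 mice, 10 had a mouse far from the others by Dixon's ratio, of which chance gives about 1 in 20. Many of these genes were chosen for large differences in the same mice, which 1 extreme mouse favours. The 10 therefore cannot be set against that rate. In the annotated precursor-exhausted cells of KO mice, KO1 stood apart for Cd4 at 124 CPM (next 29.0 CPM), and KO2 for Sall1 at 0.198 CPM, which is 1 UMI. With the other KO mice at 0 any UMI in 1 mouse gives this ratio, so it says nothing about KO2. In the differences from naive cells WT1 stood apart for Nrgn (7.32 on the log2 scale, next 2.37) and Ifit1 (-8.11, next -3.17). In the differences from exhausted cells WT1 stood apart for Bag3 (7.46), Atf3 (7.96), Rhob (6.42), Lin54 (-4.14) and Mxd1 (-3.27), and KO3 for Fosl2 (-2.58, next -1.89). WT1 holds 21 annotated precursor-exhausted and 9 exhausted cells, and a level of 0 in either makes such a difference depend on the pseudocount.

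The genotype effect differed between annotated precursor-exhausted and exhausted cells, by an interaction term in edgeR, for Igkv6-17 (4.19, adjusted p = 9.72e-08, adjusted p over the alternatives 1.97e-16 to 1.00) and Trbv29 (-10.08, adjusted p = 0.00859, alternatives 8.90e-06 to 1.00). Igkv6-17 is a B lineage transcript. In the annotated precursor-exhausted cells of KO4, 94.1% of its UMIs lay in 1 cell, while in WT2 71 cells held its 110 UMIs. Trbv29 is a T cell receptor segment with no UMI in the exhausted cells of WT2 and WT3.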

How the results depend on the processing

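Genes called by genotype in the annotated precursor-exhausted cells numbered 0, and 0 with DESeq2, with RLE size factors and with sex (read from Xist and Y-linked RNA) as a term, 45 with no filter on low counts, and 0 to 2 when 1 mouse was left out (2 without KO4). In naive cells 2 became 9 with DESeq2, 45 with no filter, 1 in G1 cells, 0 with equal cells per mouse or without Cd4-holding cells, and 1 to 10 with 1 mouse left out. In exhausted cells 1 became 14 with no filter, 0 with equal cells, and 0 to 6 with 1 mouse left out. The difference of genotype effects against naive cells went from 0 to 14 with no filter and to 0 to 7 with 1 mouse left out, and that against exhausted cells from 2 to 0 with DESeq2 and to 0 to 5 with 1 mouse left out. With no filter Zfp580 (1.55), Zfp36l2 (0.81), Klra3 (3.40) and Emilin2 (-1.89) passed. The cause was not tested.

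Replicate numbers are shared between KO and WT. Same-numbered mice correlated at 0.11, 0.07 and -0.05, and the other pairs of a KO and a WT mouse at -0.17 to 0.16. With so few pairs this cannot decide whether the numbers pair the mice. With the replicate block on 3 pairs, or 2 pairs in exhausted cells where WT1 was left out, calls were 20 in annotated precursor-exhausted, 15 in naive and 4 in exhausted cells, beside 2, 10 and 4 on the same mice without the block (added after seeing the data). The share of CD8 cells differed by 23.5 points with the block (exact p = 0.25 by sign flips, the smallest possible with 3 pairs).

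Between annotations, genes called against exhausted cells numbered 233, and 126 with a pseudocount of 5. The difference in S or G2M share turned from -6.26 to 0.727 points without WT1 (range -11.2 to 0.727 with 1 mouse left out). Counting cells in place of UMIs, the leading Trbv shares were 32.6, 47.3, 19.0 and 54.3% in KO1 to KO4, 29.4% in WT1 and 54.3% in WT3; with whole values only they were 24.0% in KO3 and 60.1% in WT3. WT1 is limited most, by its few cells and summed UMIs and not by UMIs per cell. Low genes there are read as not detectable rather than absent.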
